A study of Mus musculus with 9 samples.

Results

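Imprinted genes are expressed mainly from the copy inherited from 1 parent. Here 40 such genes, listed by symbol, were read from the count table of an RNA-seq experiment on MCEC, a line of endothelial cells from mouse heart. All 40 were found among the 55487 genes of the table. They were described in all 9 libraries: 3 of unmodified wild-type cells (WT), 3 of cells with Zbtb46 knocked down (KD) and 3 of cells with enforced Zbtb46 overexpression (OE), every group being MCEC. How the knockdown and the overexpression were made is not stated in the labels, and no cells given an empty vector were analysed here. The labels also do not say whether the 3 libraries of a group came from separate cultures, so p-values measure the spread between these libraries, which may be technical. Zbtb46 encodes a BTB zinc finger transcription factor.

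In an imprinted cluster, DNA methylation laid down in the egg or the sperm marks a control region, and the genes around it are then read from the maternal or the paternal copy. A long noncoding RNA transcribed from the unmethylated copy often silences its neighbours, as Airn does for Igf2r and Kcnq1ot1 for the Kcnq1 cluster. Many imprinted genes act on growth before birth and fall in level in most adult tissues. The counts do not separate the parental copies, so every level below is the sum of both, and nothing here measures whether imprinting was kept.

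Levels are in CPM, counts scaled to a common library total by the TMM method, and means stand with the SD of 3 libraries. A gene was taken as expressed with a mean of at least 1 CPM in some group and as off with at most 3 counts in each library, which corresponded to 0.0504 to 0.0791 CPM. "Called" means an adjusted p under 0.05 in the quasi-likelihood test of edgeR, with Benjamini-Hochberg adjustment across 16955 tested genes, and every adjusted p below is from that test unless another is named. KD and OE were compared with the same WT libraries, so their differences from WT are not independent.

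Total counts ran from 39491828 to 55745849 per library, and ribosomal RNA features took 7.44% to 18.21% of them, with the lowest share in the deepest library, WT replicate 2. Zbtb46 itself stood at 13.7 ± 0.623 CPM in WT, 11.2 ± 0.537 in KD and 191 ± 2.67 in OE, and was lower in KD (log2 -0.28, SE 0.055, adjusted p = 0.00144) and higher in OE (3.81, SE 0.039, adjusted p = 3.22e-21) than in WT, so the knockdown group kept most of its Zbtb46 transcript. Of 14 endothelial markers, 5 (Eng, Flt1, Egfl7, Kdr and Tek) reached 1 CPM in a group, Erg, Cldn5 and Emcn had at most 3 counts in any library, and Pecam1 and Cdh5 had at most 10 and 7. Summed endothelial markers ran from 147 to 160 CPM in WT, 124 to 131 in KD and 107 to 118 in OE, and 7 fibroblast markers, nearly all Col1a1 with Lum and Tcf21 at no more than 3 counts, from 5110 to 5680, 4850 to 4910 and 4040 to 4130. For 7 mural markers the sums were 16.2 to 19.7, 10.6 to 12.2 and 8.76 to 9.55 CPM, for 7 leukocyte markers 4.19 to 4.67, 5.2 to 5.75 and 3.18 to 4.56 with Ptprc and Itgam at no more than 3 counts, and for 7 cardiomyocyte markers 0.773 to 1.05, 0.697 to 1.03 and 1.41 to 1.62 with Myh6, Myh7, Nppa and Actn2 at no more than 3 counts. Several of these sums moved with the groups, and their part in the results on imprinted genes was not tested. Fewer cells that express a gene and less RNA per cell cannot be told apart in such bulk libraries.

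Sequences are shown for the 3 genes with the widest differences between the lines and for the gap between the oppositely directed starts of Peg3 and Usp29, which fell together. They were taken from the RefSeq start-site table on GRCm38.p6, in which 31 of the 40 genes were found, and each reads 5′ to 3′ on the strand named, with CpG dinucleotides, the bases that imprinting methylates, in capitals. The window of Mkrn3 is chr7:62420154-62420403 on the minus strand, that of Mest chr6:30737800-30738049 on the plus strand and that of Plagl1 chr10:13090582-13090831 on the plus strand, each the 250 bases before a start site. Mest has 3 start sites in the table, and of these windows the first of those with most CpG dinucleotides is printed. The stretch between Peg3 and Usp29 is chr7:6730420-6730582 on the plus strand, 163 bases.
Mkrn3: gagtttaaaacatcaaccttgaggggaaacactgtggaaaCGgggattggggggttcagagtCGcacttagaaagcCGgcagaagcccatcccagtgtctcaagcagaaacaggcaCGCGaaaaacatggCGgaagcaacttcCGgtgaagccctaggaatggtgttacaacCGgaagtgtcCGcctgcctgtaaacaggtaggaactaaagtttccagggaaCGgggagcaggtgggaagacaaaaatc
Mest: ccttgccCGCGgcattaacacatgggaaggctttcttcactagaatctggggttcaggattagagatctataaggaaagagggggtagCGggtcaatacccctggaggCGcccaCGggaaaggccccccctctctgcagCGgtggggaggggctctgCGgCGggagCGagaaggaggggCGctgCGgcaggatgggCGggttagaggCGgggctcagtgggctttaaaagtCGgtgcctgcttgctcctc
Plagl1: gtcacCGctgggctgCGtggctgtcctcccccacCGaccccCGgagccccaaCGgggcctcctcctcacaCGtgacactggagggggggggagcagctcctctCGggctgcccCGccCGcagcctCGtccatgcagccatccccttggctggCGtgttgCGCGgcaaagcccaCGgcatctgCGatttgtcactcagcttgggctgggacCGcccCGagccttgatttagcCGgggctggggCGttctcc
Peg3 to Usp29: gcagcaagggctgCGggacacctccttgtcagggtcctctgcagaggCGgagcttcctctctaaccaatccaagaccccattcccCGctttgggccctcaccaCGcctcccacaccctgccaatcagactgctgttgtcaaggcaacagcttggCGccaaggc

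The Mkrn3 window holds 10 CpG dinucleotides, that of Mest 14 (7 in the window of another Mest start site) and that of Plagl1 19. Among all 32851 windows of 250 bases in the table the median was 6, and 37.8%, 29.4% and 19.7% of windows held at least as many as these 3. The stretch between Peg3 and Usp29 holds 5, a number reached by 47.0% of windows cut to the same length. The methylated form of TGCCGC is the sequence bound by Zfp57, a zinc finger protein that keeps imprints. Searched on both strands, this motif occurs 2 times in the Mest window, 1 time in the Plagl1 window and 0 times in the other sequences and in that other Mest window, against 8.68% of all 250-base windows with at least 1 match and 6.34% of those of 163 bases. It was found in a window of 5 of the 31 genes matched, the others being Meg3, Zdbf2 and Zim1. These 31 genes have 44 windows, so this count of genes cannot be set against the share of windows. A match describes the letters of a window and says nothing of binding or methylation in these cells.

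**Figure D1:**
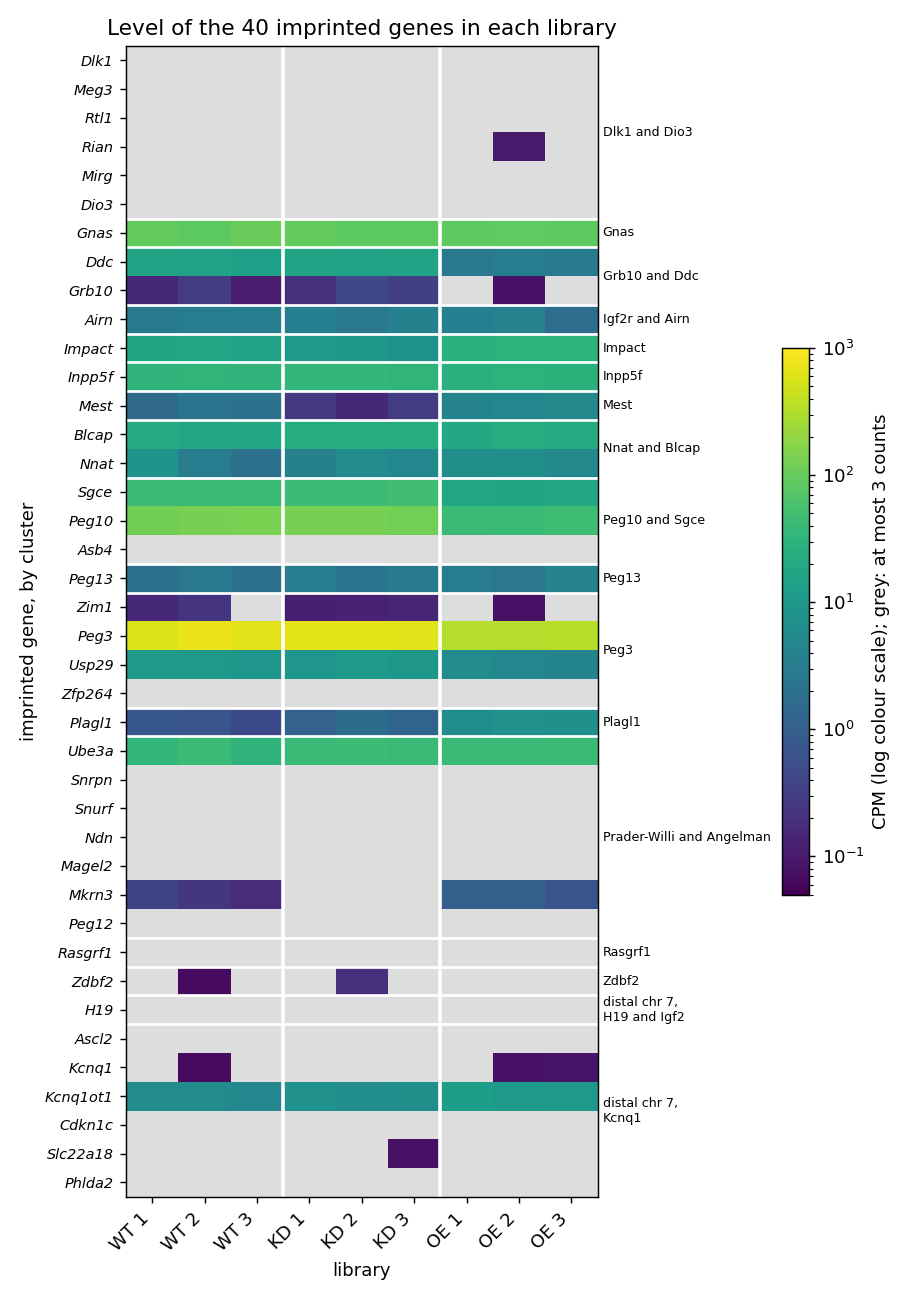
Level of each of the 40 imprinted genes (vertical axis, by cluster) in each of the 9 libraries (horizontal axis), in CPM on a log colour scale, with cells of at most 3 counts in grey. The 17 genes that are grey in every library lie mostly in a few clusters, and Mkrn3 is grey in the 3 KD libraries and coloured in the other 6.

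Of the 40 imprinted genes, 16 were expressed, 7 were low and 17 were off in all 9 libraries (the heat map of levels). Of the 23 genes normally read from the paternal copy, 11 were expressed: Kcnq1ot1, Peg3, Usp29, Peg10, Sgce, Mest, Nnat, Plagl1, Airn, Peg13 and Impact. None of the 11 maternally read genes was: Kcnq1, Slc22a18, Zim1 and Rian were low, and H19, Ascl2, Cdkn1c, Phlda2, Meg3, Mirg and Asb4 were off. Of 6 genes whose imprinting is limited to a tissue or an isoform, Inpp5f, Ube3a, Blcap, Gnas and Ddc were expressed and Grb10 was low. Ube3a, Blcap, Gnas and Grb10 carry a maternal label with such a limit and were not placed among the maternally read genes. Igf2r, maternally read and not among the 40, had a mean of 41.1 CPM in WT and 106 in OE. These allele labels are textbook knowledge, not a result of the data. The genes on the list were chosen with earlier results of these data known, so the split describes this list.

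In some clusters most or all listed genes were off or low. In the Dlk1 and Dio3 cluster of chromosome 12, Dlk1, a membrane regulator of differentiation, Rtl1, a retrotransposon-derived protein of placental vessels, Dio3, an enzyme that inactivates thyroid hormone, and the noncoding RNAs Meg3 and Mirg had at most 2 counts in any library, and Rian had at most 5. In the Prader-Willi cluster of chromosome 7, Ndn, Peg12, Snrpn and Snurf had 0 counts in every library and Magel2, a regulator of protein sorting, had 1 count in all. Snrpn and Snurf overlap each other and a predicted gene, Gm38393, on the same strand. Reads they share may have been left out or counted elsewhere, so their 0 counts may not mean absence. H19, the noncoding RNA that shares a control region with the growth factor gene Igf2, had at most 2 counts, and Igf2, not on the list of 40, had at most 1. A count of 0 allowed up to 3 counts, or 0.0791 CPM in the shallowest library, for Cdkn1c, the cell cycle inhibitor that also had 0 counts in all 9.

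The other genes that were off were scattered. Ascl2, a transcription factor of the placenta, and Phlda2, a regulator of placental growth, had at most 2 and 1 counts in a library. Asb4, which attaches to ubiquitin ligases, Zfp264, annotated as a transcribed pseudogene, and Rasgrf1, an activator of Ras, had 1, 4 and 8 counts over all 9 libraries. Among the low genes, Kcnq1, a potassium channel, had 0 to 4 counts per library, Slc22a18, a transporter, had 4 counts in KD replicate 3 and 0 elsewhere, Zim1, a zinc finger gene, had 0 to 13, and Zdbf2, a gene of growth control through the hypothalamus, had 0 to 8. None of these genes passed the filter on low counts, so they were not tested and no change can be given for them at this depth.

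Per kilobase of exon, Peg3 was the highest of the 16 expressed genes in WT at 48.9 ± 6.4 CPM per kilobase, above 94.6% of the genes tested. Peg10 followed at 19.1, then Gnas at 8.38, Blcap at 6.70, Sgce at 3.85, Inpp5f at 3.81, Ddc at 3.32, Impact at 3.25, Nnat at 2.38, Ube3a at 1.76 and Airn at 0.882. Usp29 at 0.553, Mest at 0.493, Peg13 at 0.474, Plagl1 at 0.0809 and Kcnq1ot1 at 0.0602 were the lowest. The WT libraries of Sgce overlapped those of Inpp5f, and so did neighbours from Ddc to Ube3a, from Usp29 to Peg13, and Plagl1 and Kcnq1ot1. Those of Nnat, from 1.14 to 4.25, also spanned the libraries of Sgce and Inpp5f. The order of these genes is not settled. Kcnq1ot1 is a single exon of 93092 bases in the annotation, the longest of the 40, and its value on this scale is divided by that length.

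By the rule used here, off in 1 line and at least 1 CPM in another, 0 of the 40 genes switched fully. Mkrn3 came closest. It encodes a ring finger protein of the makorin family that restrains the onset of puberty and lies in the Prader-Willi cluster (chromosome 7, 62417593 to 62420139, minus strand). It had 14, 14 and 8 counts in WT, 0, 0 and 0 in KD and 47, 50 and 30 in OE. The 3 groups did not overlap, and no KD library held a single read. The OE mean was 0.893 ± 0.196 CPM, just under the level set for expression, and the WT mean was 0.261 ± 0.0977. Against a floor of 3 counts per library, Mkrn3 was at least 3.99-fold lower in KD than in WT (adjusted p = 2.39e-04) and at least 13.6-fold higher in OE than in KD (adjusted p = 4.58e-07). In a fit of KD and WT alone it did not pass the filter on low counts. The KD call against WT therefore comes only from fits that included OE. Mkrn3 was 3.45-fold higher in OE than in WT (log2 1.79, SE 0.32, adjusted p = 0.00381). With ribosomal RNA features removed before scaling, or without OE replicate 3, its OE mean passed 1 CPM and Mkrn3 counted as a gene switched on. A predicted gene, Gm32061, overlaps it on the same strand, so some of its reads may belong there.

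Ndn, Magel2 and Peg12, the listed genes beside Mkrn3, were off in all lines. Ube3a, at the far end of the cluster, encodes a ubiquitin ligase that is imprinted in neurons. It stood at 34.2, 43.2 and 31.3 CPM in WT, 41.0, 43.6 and 41.6 in KD and 40.1, 39.7 and 43.1 in OE. WT replicate 2 lay among the modified lines and apart from the other WT libraries. Ube3a was not called in KD (log2 0.21, SE 0.14, adjusted p = 0.121) or in OE (0.17, SE 0.14, adjusted p = 0.161) against WT. Without WT replicate 2 it was called in both, at 0.36 (adjusted p = 8.33e-05) and 0.32 (adjusted p = 0.000214), and the KD difference was also called with no filter on low counts (adjusted p = 0.00991).

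Of the 18 imprinted genes that passed the filter on low counts, 5 were called between KD and WT, 2 higher and 3 lower, where 21.3% of all genes tested were called (11.0% higher, 10.4% lower). Between OE and WT 13 were called, 6 higher and 7 lower, beside 36.4% of all genes (17.0% higher, 19.5% lower). Between OE and KD 12 were called, 5 higher and 7 lower, beside 41.5% of all genes (19.4% higher, 22.1% lower). The library ranges did not overlap for 8, 12 and 13 of the 18, against 34.7%, 45.1% and 55.4% of all genes, and 3, 8 and 8 were both called and changed at least 2-fold, against 2.64%, 5.34% and 7.49%. With library totals alone or upper-quartile factors in place of TMM, 1 was higher and 3 lower in KD. The KD share, 27.8%, was close to that of all genes, and no test of the list was made.

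Direction was mixed: over the 18 genes the log2 fold change against WT had a median of 0.09 for KD and 0.03 for OE, beside -0.002 and 0.002 over all genes. The median size without sign was 0.20 in KD and 0.98 in OE, beside 0.16 and 0.22. Passing the filter needs counts in at least 1 group, so these figures do not speak for the 22 genes left out of the test. Impact, Mest and Mkrn3 were below WT in KD and above it in OE, Plagl1 was higher in both, and Peg3, Usp29, Peg10, Sgce, Ddc, Grb10 and Inpp5f were lower in OE and not called in KD. Kcnq1ot1 and Peg13 were higher in OE and not called in KD, and Blcap was higher in KD and not called in OE. Airn, Gnas, Nnat and Ube3a were called in none of the 3 comparisons.

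**Figure D2:**
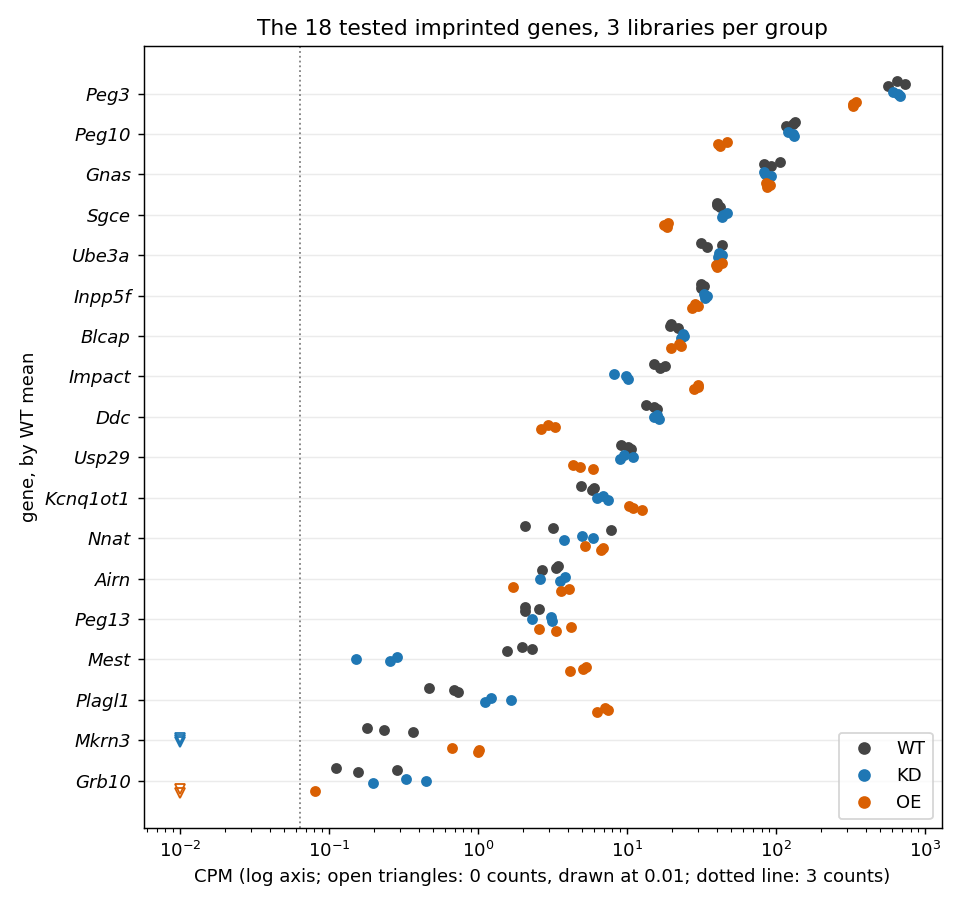
CPM of the 18 tested imprinted genes (vertical axis, by WT mean) in 3 WT, 3 KD and 3 OE libraries on a log axis, 1 point per library, with open triangles for libraries with 0 counts and a dotted line at 3 counts. The OE points of Peg3, Usp29, Peg10, Sgce and Ddc lie to the left of the WT and KD points, and those of Plagl1, Mest and Impact to the right.

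Mest encodes an enzyme of the hydrolase fold whose loss slows growth, and is a classic paternally read gene (chromosome 6, 30723547 to 30748465, plus strand). It stood at 1.56, 2.29 and 1.99 CPM in WT (59, 136 and 89 counts), 0.258, 0.151 and 0.287 in KD (13, 6 and 14 counts) and 4.13, 5.05 and 5.33 in OE (194, 250 and 240 counts). Each KD library lay below each WT library and each OE library above, with no overlap. Mest was 8.22-fold lower in KD than in WT (log2 -3.04, SE 0.29, adjusted p = 7.24e-08) and 2.46-fold higher in OE (log2 1.30, SE 0.19, adjusted p = 1.59e-05). Between OE and KD the difference reached 20.2-fold (log2 4.34, SE 0.26, adjusted p = 1.6e-11). Even in OE, at 4.84 ± 0.626 CPM, Mest was a weakly expressed gene. Copg2 overlaps its end on the opposite strand, at 27.6 ± 2.97 CPM in WT, and since the strand setting of the counting is not given in the sources used here, a share of the reads could belong to either gene. Copg2 was not called against WT in KD (log2 -0.19, SE 0.097, adjusted p = 0.11) or in OE (0.03, SE 0.126, adjusted p = 0.84). Of the 16 other genes tested within 1 Mb, not on an imprinted list, 2 were higher and 2 lower in KD and 5 higher and 3 lower in OE, with medians of 0.04 and 0.13.

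Impact, named for its imprinting in mouse, encodes an inhibitor of the amino acid sensing kinase Gcn2. It stood at 16.7, 18.1 and 15.2 CPM in WT, 10.1, 9.80 and 8.24 in KD and 28.1, 30.2 and 30.0 in OE. The order was the same as for Mest, with 3 separate groups. Impact was lower in KD (log2 -0.83, SE 0.12, adjusted p = 7.56e-07) and higher in OE (0.82, SE 0.079, adjusted p = 1.07e-07), a 3.14-fold span between OE and KD (log2 1.65, SE 0.10, adjusted p = 2.66e-12). Of the 11 other genes tested within 1 Mb, 1 was lower in KD, and 1 was higher and 2 lower in OE.

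Plagl1 encodes a zinc finger transcription factor, also called Zac1, that restrains the cell cycle and regulates other imprinted genes (chromosome 10, 13060504 to 13131694, plus strand). It had 28, 41 and 21 counts in WT, 56, 67 and 60 in KD and 295, 367 and 319 in OE, or 0.738, 0.689 and 0.470 CPM, then 1.11, 1.68 and 1.23, then 6.29, 7.41 and 7.09. Both modified lines lay above WT in every library, OE far above KD. Plagl1 was 2.10-fold higher in KD (log2 1.07, SE 0.26, adjusted p = 0.00186) and 10.9-fold higher in OE (log2 3.45, SE 0.20, adjusted p = 3.24e-11), and 5.20-fold higher in OE than in KD (log2 2.38, SE 0.19, adjusted p = 1.3e-09). Of the 11 other genes tested within 1 Mb, 2 were higher and 0 lower in OE, with a median of 0.10.

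**Figure D3:**
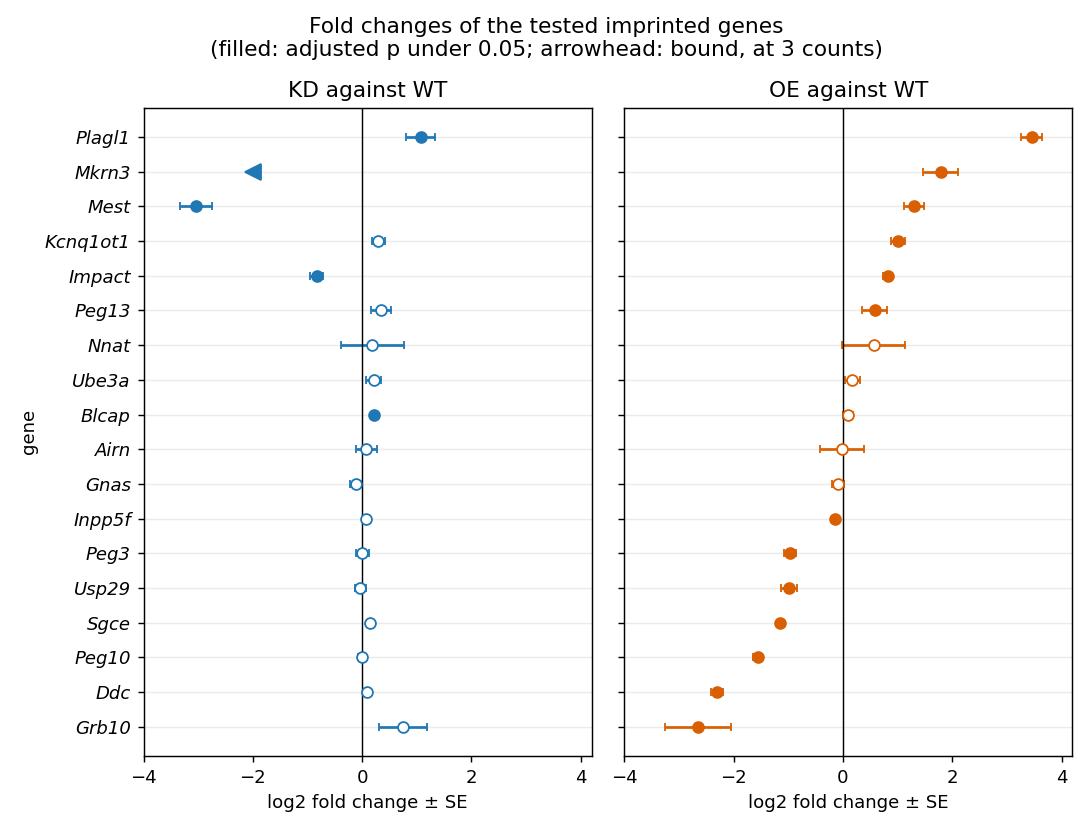
Log2 fold change with its SE (horizontal axis) of the 18 tested imprinted genes (vertical axis) in KD and in OE against WT, with filled points for an adjusted p under 0.05 and an arrowhead for Mkrn3 in KD, which is a bound set at 3 counts. Mest, Impact and Mkrn3 lie on opposite sides of 0 in the panels, Plagl1 lies to the right in both, and most of the largest falls appear in OE alone.

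On proximal chromosome 7, Peg3 and Usp29 start 147 bases apart in the GENCODE annotation and run in opposite directions. Peg3 encodes a large zinc finger protein tied to growth and maternal behaviour (6703892 to 6730431, minus strand), and Usp29 a ubiquitin protease (6730578 to 6967219, plus strand). Peg3 stood at 566, 738 and 650 CPM in WT, 677, 662 and 614 in KD and 328, 328 and 346 in OE. Usp29 stood at 10.6, 10.2 and 9.17 CPM in WT, 9.0, 10.9 and 9.57 in KD and 5.90, 4.85 and 4.33 in OE. For both genes, KD overlapped WT while each OE library lay below all other libraries. Peg3 fell by 48.8% in OE (log2 -0.97, SE 0.11, adjusted p = 1.93e-06) and Usp29 by 49.7% (log2 -0.99, SE 0.14, adjusted p = 1.53e-06). In KD the log2 differences were -0.00 for Peg3 (SE 0.12, adjusted p = 0.993) and -0.03 for Usp29 (SE 0.10, adjusted p = 0.904). The Peg3 to Usp29 count ratio ran from 53.3 to 72.2 in WT, 60.8 to 75.2 in KD and 55.5 to 79.8 in OE, so it overlapped between all lines while both levels dropped. Among the 16 other genes tested within 1 Mb, 2 were higher and 0 lower in OE, with a median of -0.06.

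On chromosome 6, Sgce and Peg10 have starts 99 bases apart, again in opposite directions. Peg10 is a retrotransposon-derived gene needed by the placenta (4747306 to 4760517, plus strand), and Sgce encodes a sarcoglycan of the cell membrane, mutated in human myoclonus dystonia (4674350 to 4747207, minus strand). Peg10 stood at 117, 131 and 135 CPM in WT, 132, 130 and 120 in KD and 42.2, 41.0 and 47.0 in OE. Sgce stood at 42.4, 39.9 and 40.2 CPM in WT, 43.7, 44.2 and 47.2 in KD and 18.5, 17.8 and 19 in OE. Both were far lower in OE than in any other library. Peg10 fell 2.94-fold in OE (log2 -1.56, SE 0.085, adjusted p = 2.1e-13) and Sgce 2.21-fold (log2 -1.15, SE 0.038, adjusted p = 3.99e-12). Every KD library of Sgce lay above every WT library, by a log2 difference of 0.14 (SE 0.044) that was not called (adjusted p = 0.0821), and Peg10 in KD differed by -0.00 (SE 0.075, adjusted p = 0.981). At this pair the Peg10 to Sgce count ratio was lower in each OE library, at 2.27 to 2.47, than in WT at 2.76 to 3.36 or KD at 2.54 to 3.01. Of 9 other genes tested within 1 Mb, 2 were higher and 3 lower in OE, with a median of 0.21. Asb4, a maternally read gene farther along this cluster, was off.

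**Figure D4:**
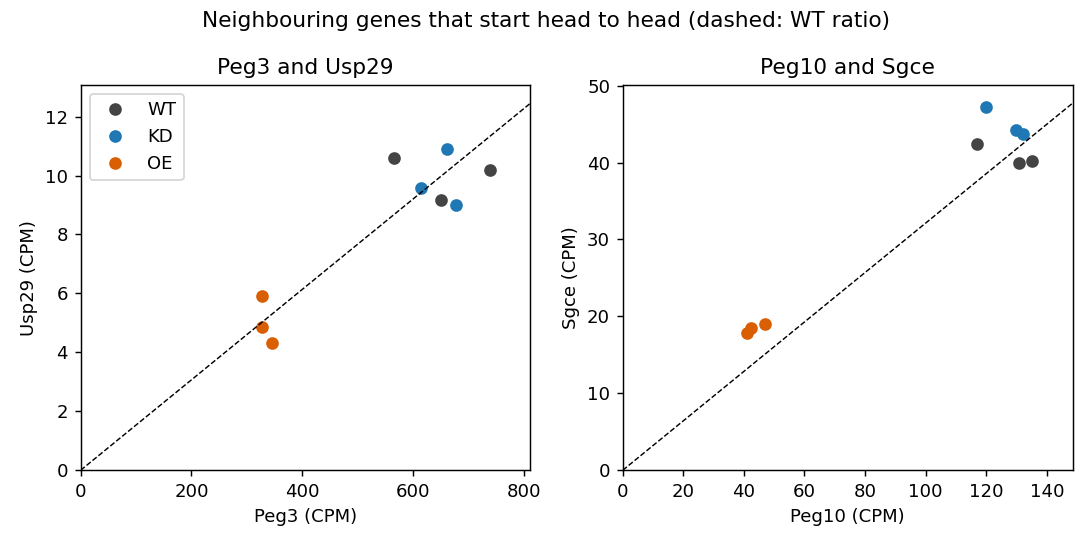
CPM of Usp29 (vertical) against Peg3 (left) and of Sgce (vertical) against Peg10 (right), 1 point per library, coloured by group, with a dashed line at the WT ratio. The OE points lie nearest the origin in both panels, and for Peg10 and Sgce all 3 lie above the line.

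On chromosome 11, Ddc encodes aromatic amino acid decarboxylase, which makes dopamine and serotonin (11814101 to 11898144, minus strand), and its neighbour Grb10 an adaptor that inhibits growth factor receptors (11930508 to 12038683, minus strand). Ddc stood at 16.0, 15.1 and 13.4 CPM in WT, 16.3, 15.1 and 16.0 in KD and 2.66, 3.29 and 2.96 in OE. Each OE library lay well under the others. Ddc fell 4.97-fold in OE (log2 -2.31, SE 0.11, adjusted p = 5.68e-13) and differed by 0.09 in KD (SE 0.081, adjusted p = 0.548). Grb10 had 6, 17 and 5 counts in WT, 10, 18 and 16 in KD and 0, 4 and 0 in OE. It was called lower in OE than in WT (log2 -2.65, SE 0.60, adjusted p = 0.0264) and than in KD (log2 -3.40, SE 0.59, adjusted p = 0.00295). In a fit of OE and WT alone, or of OE and KD alone, Grb10 did not pass the filter on low counts. Both calls therefore come only from fits that held all groups. The sizes of these differences rest on the 4 counts of OE replicate 2. Without it both remaining OE libraries were at 0, and the fitted values of -6.17 and -6.92 are then no measure of size. The call against WT was lost without WT replicate 2 (-2.16, adjusted p = 0.129), without OE replicate 1 (-2.11, adjusted p = 0.112) and without OE replicate 3 (-2.13, adjusted p = 0.109), within a range of adjusted p from 0.00592 to 0.129 over its alternatives. Of 4 other genes tested within 1 Mb, 1 was lower in OE and 0 higher, beside 19.5% and 17.0% of all genes. The medians of the region around them were also lower. They were -0.62 for these 4 and -0.41 for the 139 genes within 10 Mb, beside 0.002 for all genes. The part of this wider shift in the values of Ddc and Grb10 was not tested.

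In the Kcnq1 cluster of distal chromosome 7, the silencing RNA Kcnq1ot1 (143203458 to 143296549, minus strand) was the only gene expressed of those listed. It stood at 5.83, 6.05 and 4.94 CPM in WT, 7.47, 6.33 and 6.90 in KD and 12.7, 10.9 and 10.3 in OE. Each OE library lay above all others, and each KD library above WT. Kcnq1ot1 was 2.02-fold higher in OE than in WT (log2 1.01, SE 0.13, adjusted p = 6.16e-07) and 1.64-fold higher than in KD (log2 0.71, SE 0.11, adjusted p = 3.22e-05), while KD against WT was not called (0.30, SE 0.11, adjusted p = 0.0839). Without WT replicate 2 the KD difference, at 0.36, was called (adjusted p = 0.0442). Its maternally read neighbours among those listed, Cdkn1c, Phlda2, Ascl2, Slc22a18 and Kcnq1, were off or low in all lines. No difference can be given for these genes. Kcnq1ot1 lies within Kcnq1 on the opposite strand. Of 18 other genes tested within 1 Mb, not on an imprinted list, 4 were higher and 5 lower in OE.

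At the Igf2r locus of chromosome 17, the silencing RNA Airn (12741311 to 12860136, plus strand) overlaps its target on the opposite strand. Airn stood at 2.69, 3.36 and 3.47 CPM in WT, 3.58, 2.61 and 3.85 in KD and 3.62, 4.06 and 1.71 in OE. The lines overlapped, and Airn differed from WT by 0.08 in KD (SE 0.20, adjusted p = 0.882) and by -0.02 in OE (SE 0.40, adjusted p = 0.964). Igf2r, a receptor that clears Igf2 and carries lysosomal enzymes, was not among the 40 but on a second list of imprinted genes. It stood at 36.1, 44.7 and 42.5 CPM in WT, 3.24, 2.79 and 2.48 in KD and 105, 103 and 111 in OE, with no overlap. Igf2r was lower in KD (log2 -3.86, SE 0.144, adjusted p = 2.79e-15) and higher in OE (1.37, SE 0.1, adjusted p = 3.24e-11) and kept both calls in every alternative run. Without strand, reads of Airn and Igf2r in their overlap cannot be told apart.

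The remaining called genes changed little. Inpp5f encodes a phosphatase of membrane lipids with an imprinted brain variant, and stood at 31.2, 32.7 and 31.3 CPM in WT, 33.4, 34.6 and 32.8 in KD and 27.2, 29.8 and 28.5 in OE. Each OE library was below all WT and KD libraries. Inpp5f was 10.2% lower in OE than in WT (log2 -0.15, SE 0.043, adjusted p = 0.0466) and lower than in KD (-0.24, SE 0.043, adjusted p = 0.0028). The call against WT was lost in 13 of 19 alternatives, among them without WT replicate 1 or 2, any single KD replicate, or OE replicate 1 or 3, with adjusted p from 0.0345 to 0.19 over all of them. With the replicate number as a block it was also lost (-0.15, adjusted p = 0.0506).

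Peg13, a noncoding RNA within the gene Trappc9, stood at 2.06, 2.59 and 2.08 CPM in WT, 3.14, 2.29 and 3.09 in KD and 3.35, 2.58 and 4.2 in OE. OE replicate 2 lay within the WT range. Peg13 was called higher in OE than in WT (log2 0.58, SE 0.23, adjusted p = 0.0254) and not in KD (0.34, SE 0.18, adjusted p = 0.263). The OE call was lost without WT replicate 1 (0.52, adjusted p = 0.079) or WT replicate 3 (0.52, adjusted p = 0.069). Without OE replicate 1 (0.59, adjusted p = 0.0618) or OE replicate 3 (0.39, adjusted p = 0.171) it was lost too. Library totals alone (0.51, adjusted p = 0.0562) and limma-voom (0.53, adjusted p = 0.054) also lost it. Over all alternatives its adjusted p ran from 0.00893 to 0.171. Trappc9, which surrounds it on the same strand at 34.1 ± 1.97 CPM in WT, was lower in OE (log2 -0.30, SE 0.063, adjusted p = 0.000744).

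On chromosome 2, Nnat lies in an intron of Blcap on the opposite strand. Blcap, a small membrane protein linked to cell death, stood at 21.9, 19.3 and 19.9 CPM in WT, 23.2, 24.3 and 23.8 in KD and 19.7, 22.9 and 22.2 in OE. Each KD library lay above WT, and OE overlapped WT. Blcap was 16.7% higher in KD (log2 0.22, SE 0.059, adjusted p = 0.0352) and not called in OE (0.09, SE 0.085, adjusted p = 0.406). Leaving out WT replicate 2 or 3 or any single KD replicate lost the KD call, with adjusted p from 0.0645 to 0.132. It was also lost with upper-quartile factors (adjusted p = 0.0719) and with library totals alone (adjusted p = 0.128). Over all alternatives the adjusted p ran from 0.0193 to 0.132. Nnat, a proteolipid of developing brain and of endocrine cells, stood at 7.78, 3.19 and 2.08 CPM in WT, 3.77, 5.88 and 5.00 in KD and 6.67, 6.87 and 5.25 in OE. WT replicate 1 was the highest of all 9 libraries and the other WT libraries the lowest. Nnat was not called in KD (0.19, SE 0.58, adjusted p = 0.840) or OE (0.56, SE 0.57, adjusted p = 0.408), and without WT replicate 1 it was called in both, at 0.87 (adjusted p = 0.00824) and 1.23 (adjusted p = 0.000183). With limma-voom the OE difference, 0.81, was called as well (adjusted p = 0.035), and in a fit of only OE and KD Nnat was higher in OE by 0.36 (adjusted p = 0.0352).

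Gnas, which encodes the stimulatory G protein subunit and several imprinted isoforms, stood at 93.2, 82.6 and 106 CPM in WT, 93.2, 84.0 and 83.5 in KD and 86.5, 90.7 and 85.5 in OE. The counts sum its isoforms, and the 3 lines overlapped. Gnas was not called in KD (-0.11, SE 0.11, adjusted p = 0.339) or OE (-0.10, SE 0.11, adjusted p = 0.334). Without WT replicate 2 it was called in both, at -0.19 (adjusted p = 0.0138) and -0.19 (adjusted p = 0.0111).

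A second list held 65 other genes with reported imprinting, some of it in placenta or brain alone. Of these, 61 were in the table, 17 were off in every library and 34 were tested. In KD 5 were higher and 6 lower than in WT, beside 21.3% of all genes called, with a median log2 fold change of 0.02. The largest were Adam23, a membrane protein of cell contacts (-4.31, SE 0.676, adjusted p = 2.57e-07), Igf2r, and Zrsr1, a splicing factor gene (-1.08, SE 0.167, adjusted p = 0.000103), below WT, and Tnfrsf23, a decoy death receptor (0.56, SE 0.071), Cobl, an actin nucleator (0.44, SE 0.052), and Jade1, a subunit of a histone acetyltransferase (0.36, SE 0.054), above it. Adam23 in KD, at 0, 0.0754 and 0.164 CPM, lay about the level of 3 counts, and its value moved to -3.68 without KD replicate 1 and to -5.49 without KD replicate 3. In OE 9 were higher and 13 lower, beside 36.4% of all genes called, with a median of -0.11. Smoc1, a matrix protein (-5.01, SE 0.191, adjusted p = 3.61e-16), Zrsr1 (-3.11, SE 0.206) and Dcn, the proteoglycan decorin and also 1 of the fibroblast markers (-1.42, SE 0.058), were lowest relative to WT, and Slc38a4, an amino acid transporter (1.51, SE 0.324, adjusted p = 0.00187), Igf2r and Adam23 (1.08, SE 0.121, adjusted p = 0.00223) the highest. Of the imprinted genes named here, Adam23, Igf2r, Mest, Impact and Mkrn3 were thus called below WT in KD and above it in OE. Other genes of the second list, not named here, were called in these directions or in the reverse ones. Between OE and KD 9 were higher and 17 lower, beside 41.5% of all genes called.

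Of 36 factors that write, read or keep imprints, all were in the table and 33 were tested. In KD 7 were higher and 0 lower than in WT, with a median of 0.03, and in OE 9 were higher and 4 lower, with a median of 0.09, beside 21.3% and 36.4% of all genes called. These shares were near those of all genes. With upper-quartile factors 6 were higher and 4 lower in KD and 15 higher and 3 lower in OE, and without WT replicate 1 the KD split was 2 and 2. The KD differences were small: Ctcf, the insulator protein of imprinted control regions, rose by 0.29 (SE 0.045, adjusted p = 5.95e-05), Kdm1b, a histone demethylase that acts in the egg, by 0.34 (SE 0.066, adjusted p = 0.00236) and Zfp57 by 0.40 (SE 0.099, adjusted p = 0.0351). The Zfp57 call was lost without WT replicate 1, 2 or 3 or KD replicate 1 or 2, with adjusted p from 0.0737 to 0.197. Library totals alone also lost it (adjusted p = 0.0777). The count of 7 changed to 13 without WT replicate 2 and to between 3 and 4 without any other single WT or KD library. In OE, Suz12, a subunit of the Polycomb complex (0.44, SE 0.105), Tet3, which oxidises methylated cytosine (0.38, SE 0.027), and Ctcf (0.27, SE 0.045) were higher. Zfp445, a zinc finger protein that keeps imprints (-0.50, SE 0.121, adjusted p = 0.000104), Dnmt1, the maintenance methyltransferase (-0.35, SE 0.026, adjusted p = 3.24e-07), and Ehmt2, a histone methyltransferase (-0.14, SE 0.031, adjusted p = 0.0105), were lower in OE than in WT. The Ehmt2 call was lost without OE replicate 3 (-0.12, adjusted p = 0.0575) and with upper-quartile factors (-0.1, adjusted p = 0.0637).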

How the data were processed

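Poly-A selected RNA of 9 MCEC libraries was sequenced. The authors deposited a table of raw counts, whole numbers for each Ensembl gene in each library, as its values show. Per the submitters' processing notes the build was GRCm38 (mm10). The aligner, the counting program, its strand setting and the annotation are not given in the sources used here, so overlapping genes may share counts. Each of 9 columns matched 1 sample by name, and 0 columns of no sample were present. The 168 genes on 455 lines, always with identical counts, were counted once. Positions came from GENCODE M21 on GRCm38 (55227 of 55487 genes matched) and sequences from RefSeq on GRCm38.p6.

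Genes were kept with filterByExpr by group, scaled with TMM and fitted in 1 quasi-likelihood model over the 9 libraries (R 4.3.3 with edgeR 4.0.16, DESeq2 1.42.0 and limma 3.58.1; Python 3.11.15 with numpy 2.4.6, pandas 2.3.3 and matplotlib 3.10.9), with Benjamini-Hochberg adjustment over 16955 genes. With 3 libraries against 3, the smallest p of an exact permutation test is 0.1. Standard errors were derived from the spread of log2 CPM within groups, with a prior count of 2. The 19 alternatives were DESeq2, upper-quartile or total-count scaling, filters of 1 count in all or 10 in every library, DESeq2 or limma-voom, 2 groups per fit, the replicate block, removal of ribosomal RNA features, and each of 9 libraries left out. For the level classes, 0.5 CPM and 0 counts were tried as limits.

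The genes and lists were chosen with earlier results of these data known. Genes called in at least 1 comparison were to be described in full and the others by level. Ube3a, Airn, Nnat and Gnas, called in none, were described in full all the same. From each further list, up to 3 called genes per direction and comparison with WT, of at least 1 CPM in a group and the largest change, were named. Trappc9, Copg2 and Igf2, beside or around listed genes, were added after their values were seen. Replicates of a group differed by more than sampling noise, and most in WT. The median chi-square was 8.17 to 11.17 times that expected in WT, 3.01 to 3.91 in KD and 3.05 to 5.54 in OE. No pair was counted as 1 sample. The level of 1 marker gene is not reported here.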

Additional observations from a re-analysis of the deposited data

How the results depend on the processing

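No called difference of a named imprinted gene changed direction under any of the 19 alternatives in which it was tested. Both Grb10 calls and that of Mkrn3 in KD against WT were tested in 17 of them. The calls of Mest and Adam23 and the other Mkrn3 calls were tested in 18. With at least 10 counts in every library, 3 imprinted genes were called in KD against WT (2 higher, 1 lower) in place of 5, because Mest and Mkrn3 did not pass that filter. With only KD and WT in the fit, 4 were called (2 higher, 2 lower), and Mkrn3 was not tested. Leaving out single libraries gave 4 to 7 called in KD, 10 to 13 in OE and 12 to 12 between OE and KD, 16 to 17 genes expressed, 17 to 18 off, and 0 to 1 switched between lines. Mkrn3 was the 1 gene switched without OE replicate 3, with ribosomal RNA features removed, and with 0.5 CPM as the limit of expression. When only 0 counts in each library counted as off, 5 genes were off in place of 17. Over the whole table, leaving out single libraries gave 2537 to 4699 calls in KD, 5228 to 6440 in OE and 6072 to 7604 between them. The factors that keep imprints gave 2 calls in KD with library totals alone, 10 (6 higher, 4 lower) with upper-quartile factors and 3 to 13 with single libraries left out, an alternative added after the data were seen. With library totals alone, 35.8% of all KD calls and 31.6% of all OE calls were higher, in place of 51.4% and 46.6%, and with upper-quartile factors 42.7% of KD calls and 57.6% of those between OE and KD, in place of 46.8% for the latter. Under both, 1 of 4 imprinted genes called in KD was higher, in place of 2 of 5. The cause of these shifts was not tested.

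Same-numbered libraries did not deviate together (correlations of -0.042 to 0.049 across genes), so the numbers do not pair them. With the replicate number as a block, 5, 12 and 12 imprinted genes were called in KD, OE and between them, and 3574, 6111 and 6969 genes in all. Few counts limit Grb10 and Mkrn3, and for the 22 genes that were not tested a change was not detectable at this depth.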
